A study of Mus musculus with 11 samples.

Results

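Integrins are the adhesion receptors with which leukocytes hold on to vessel walls, matrix and other cells, and 10 genes of integrin chains found on leukocytes were followed here in macrophages of a mouse tumor and of the spleen. The genes were chosen by name: the α chains Itgam (CD11b), Itgax (CD11c), Itgal (CD11a), Itga4, Itga5 and Itga6, and the β chains Itgb1, Itgb2 (CD18), Itgb3 and Itgb7. All 10 were read in the table of the genotype comparison, which lists 35118 genes, and in the table of the site comparison, which lists 35597, and all 10 passed the filter on low values in both. RNA was sequenced from 11 libraries in 3 groups. WT_TAM (4 libraries) was tumor-associated macrophages of Sin1fl/fl mice, KO_TAM (4 libraries) was tumor-associated macrophages of LysMCre;Sin1fl/fl mice, and WT_SP (3 libraries) was splenic macrophages of tumor-bearing Sin1fl/fl mice. All mice were C57BL/6, carried both floxed Sin1 alleles, were 6 to 8 weeks old when 500000 Lewis lung carcinoma (LLC) cells, a mouse lung tumor line, were put under the skin, and were used on day 14. Sin1 is the product of Mapkap1 and a subunit of the kinase complex mTORC2. LysMCre is expressed from the Lyz2 locus, in macrophages, monocytes and neutrophils, so Cre is not limited to tumor macrophages.

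The gates of the sorts bear directly on these genes. Tumor macrophages were taken as CD45+ Ly6G- Ly6C- cells positive for CD11b and F4/80, and splenic macrophages as CD45+ TCRβ- Ly6G- Ly6C- cells positive for F4/80 with low CD11b. CD11b is the product of Itgam, so the level of Itgam in WT_TAM against WT_SP is given below as a description, with no test, and its call is left out of the counts between tumor and spleen. WT_TAM and KO_TAM were sorted with the same gate.

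An integrin is a pair of an α and a β chain, and the pair decides the ligand. The β2 chain pairs with the 4 α chains Itgal, Itgam, Itgax and Itgad to form the leukocyte-specific receptors for ICAMs, complement iC3b and fibrinogen. The β1 chain pairs with many α chains, among them Itga5 (a fibronectin receptor), Itga4 (a receptor for VCAM1 and fibronectin) and Itga6 (a laminin receptor). The β7 chain pairs with Itga4, to bind MAdCAM1, or with Itgae, to bind E-cadherin, and the β3 chain with Itgav or, in platelets, Itga2b. Cells switch integrins to the binding state from inside through Rap1, talin and kindlin, and bound integrins signal inward through SRC-family kinases, SYK, FAK and paxillin.

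The 4 genes of the β2 partners lie on chromosome 7 of GRCm38, all on the plus strand: Itgal at chr7:127296260-127335138, Itgam at chr7:128062640-128118491, Itgax at chr7:128129547-128150657 and Itgad at chr7:128154376-128223816. Itgb2 lies at chr10:77530252-77565708 on the plus strand. Itga4 (chr2:79255426-79333123) and Itga6 (chr2:71745616-71858416) are on the plus strand, as are Itgb1 (chr8:128685654-128733200) and Itgb3 (chr11:104608000-104670476). Itga5 (chr15:103344286-103366763) and Itgb7 (chr15:102215995-102231944) are on the minus strand. In GENCODE M21, 68.7% of the exon bases of Itgam are shared on the same strand with a readthrough gene that spans chr7:128062683-128128160. The deposited tables give that second gene identifier the name Itgam too, and it held between 0 and 8 reads in each library. How reads in the shared exons were assigned is not given in the labels or headers, so the level of Itgam may leave some of them out. What this does to its level against other genes, or to its change between groups, was not tested. Of the exon bases of Itga4, 8.04% lie opposite exons of Cerkl, and the other 8 genes share none.

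Promoter sequences from RefSeq (GRCm38.p6) were matched for 6 of the 10 genes. The 250 bases before the start are shown for 4 of them, the 3 α chains that were higher in tumor than in splenic macrophages and Itga4, which went the other way. Capitals mark the core of the PU.1 site (GAGGAA or, on the other strand, TTCCTC) and the core of the RUNX site (TGTGGT or ACCACA). PU.1 and RUNX1 are transcription factors of the myeloid lineage.
Itgam (chr7:128062390-128062639, plus strand): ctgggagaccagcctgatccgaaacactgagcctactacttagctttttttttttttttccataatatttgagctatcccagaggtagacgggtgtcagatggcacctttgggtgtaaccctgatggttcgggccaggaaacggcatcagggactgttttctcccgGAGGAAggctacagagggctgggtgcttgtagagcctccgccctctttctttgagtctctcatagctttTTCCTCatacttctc
Itgax (chr7:128129300-128129549, plus strand): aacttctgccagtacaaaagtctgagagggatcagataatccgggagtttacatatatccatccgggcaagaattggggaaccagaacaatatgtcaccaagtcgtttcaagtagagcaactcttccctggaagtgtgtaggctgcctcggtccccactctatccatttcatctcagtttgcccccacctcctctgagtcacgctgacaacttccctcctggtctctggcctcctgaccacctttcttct
Itga5 (chr15:103366792-103367041, minus strand): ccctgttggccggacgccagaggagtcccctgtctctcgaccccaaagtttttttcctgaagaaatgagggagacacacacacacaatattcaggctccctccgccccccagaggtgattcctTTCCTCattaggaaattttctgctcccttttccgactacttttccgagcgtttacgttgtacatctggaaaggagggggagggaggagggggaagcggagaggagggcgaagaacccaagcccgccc
Itga4 (chr2:79255176-79255425, plus strand): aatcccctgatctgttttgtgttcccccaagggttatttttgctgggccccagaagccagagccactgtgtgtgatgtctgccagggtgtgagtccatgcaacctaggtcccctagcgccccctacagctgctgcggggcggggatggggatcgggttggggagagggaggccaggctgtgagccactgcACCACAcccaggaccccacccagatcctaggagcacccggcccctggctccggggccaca
The Itgam window held 2 PU.1 cores, Itga5 held 1, and Itga4 held 1 RUNX core. No 2 matches overlapped. The Itgax window held neither. Of the matched promoters not shown, that of Itgb1 held 1 PU.1 core and no RUNX core, and that of Itgb7 held neither. Over 32851 RefSeq promoters of the same length, 23.3% held the PU.1 core and 14.0% the RUNX core, so a match is common, and it is a description of the letters only.

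Depth was between 7617437 and 13075310 recovered reads a library, and 3 reads, the limit below which a gene is not told from 0, were worth 0.211 to 0.492 CPM, which are reads scaled to a common library size. The lowest value of any of the 10 genes was 4.03 CPM. The library labelled WT_TAM replicate 4, which is also the shallowest, and KO_TAM replicate 2 lay apart from their groups: their root mean square distances from the mean of the other libraries of the group were 0.985 and 0.728 on the log2 scale, against 0.428 to 0.495 for the other tumor libraries of the genotype table and 0.342 to 0.423 for WT_SP. Results that rest on them are therefore also given without them. Mapkap1 stood at 43.98, 54.1, 43.3 and 45.9 CPM in KO_TAM replicates 1 to 4 and at 71.1, 66.4, 59.7 and 30.7 CPM in WT_TAM replicates 1 to 4, so the library labelled WT_TAM replicate 4 lay below every KO_TAM library. Reads over the whole gene include exons outside the deleted part and do not check the label. Lyz2, the gene that carries the Cre, stood at 11502, 2744, 11853 and 15235 CPM in KO_TAM and at 25950.3, 27704, 22293 and 33744 CPM in WT_TAM, with no overlap. Whether the libraries of a group came from different mice is not stated, so p-values reflect library-to-library spread, which may be technical. The WT_TAM libraries serve both comparisons, which are therefore not independent. Their values differ between the tables because each table has its own scaling.

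All the macrophage markers looked for were read in every group (8 of 8, among them Adgre1, Csf1r and Cd68), but other cell types were read too. Summed CPM of the 8 macrophage markers ran from 30981 to 42398 in WT_TAM and from 3704 to 3984 in WT_SP, but most of the WT_TAM sum was Lyz2 (means of 30708 CPM in WT_TAM and 1796 in WT_SP). Of the 8, 5 were called higher in WT_TAM, beside 23.1% of all genes tested, and Adgre1 (516 and 301), Csf1r (1781 and 1069.9) and Mertk (61.4 and 63.5) were not called. Those of 6 red pulp macrophage markers ran from 259 to 692 and from 3722 to 4181. The 5 B cell markers summed to 9.18 to 71.3 CPM in WT_TAM and to 5381 to 6414 in WT_SP, and the 6 T cell markers, against which the splenic sort had a TCRβ gate, to 64.1 to 101 and 972 to 1018. The 9 neutrophil markers, against which both sorts had a Ly6G gate, summed to 88.7 to 221 CPM in WT_TAM and 1065 to 2912 in WT_SP. In the genotype table, the macrophage markers summed to 27354 to 40080.4 CPM in WT_TAM and 7742 to 19758 in KO_TAM. On average, most of both sums was again Lyz2, the gene that carries the Cre. Of the 8, only Lyz2 (means of 27423 and 10333) and C1qa (1540.0 and 594) were lower in KO_TAM without overlap, beside 8.69% of all genes tested. The log2 fold change was above 0 for 3 of the 8, most for Adgre1 (means of 455 and 850), which overlapped. In the same table, 6 fibroblast markers summed to 379 to 838 CPM in WT_TAM and 28.01 to 230.5 in KO_TAM. Of the 6, 4 were lower without overlap, beside the 8.69% of all genes tested. The sums of the neutrophil markers (83.8 to 191 and 213 to 790.4) and of 6 markers of eosinophils, basophils and mast cells (11.2 to 86.6 and 113 to 527) were each carried mainly by 1 gene. Retnlg had means of 73.9 CPM in WT_TAM and 293 in KO_TAM, and it was 1 of 3 neutrophil markers that passed the filter and the one that did not overlap: S100a8 (12.2 and 14.0) and Csf3r (37.7 and 74.3) overlapped. Siglecf had means of 46.8 and 219 CPM and did not overlap, while Prg2 (2.38 and 13.4) and Cpa3, a mast cell gene that went the other way (6.75 and 3.04), overlapped. No marker of these lists was without reads in all libraries of a group. In these bulk samples, fewer cells of a type and less RNA per cell cannot be told apart.

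**Figure D1:**
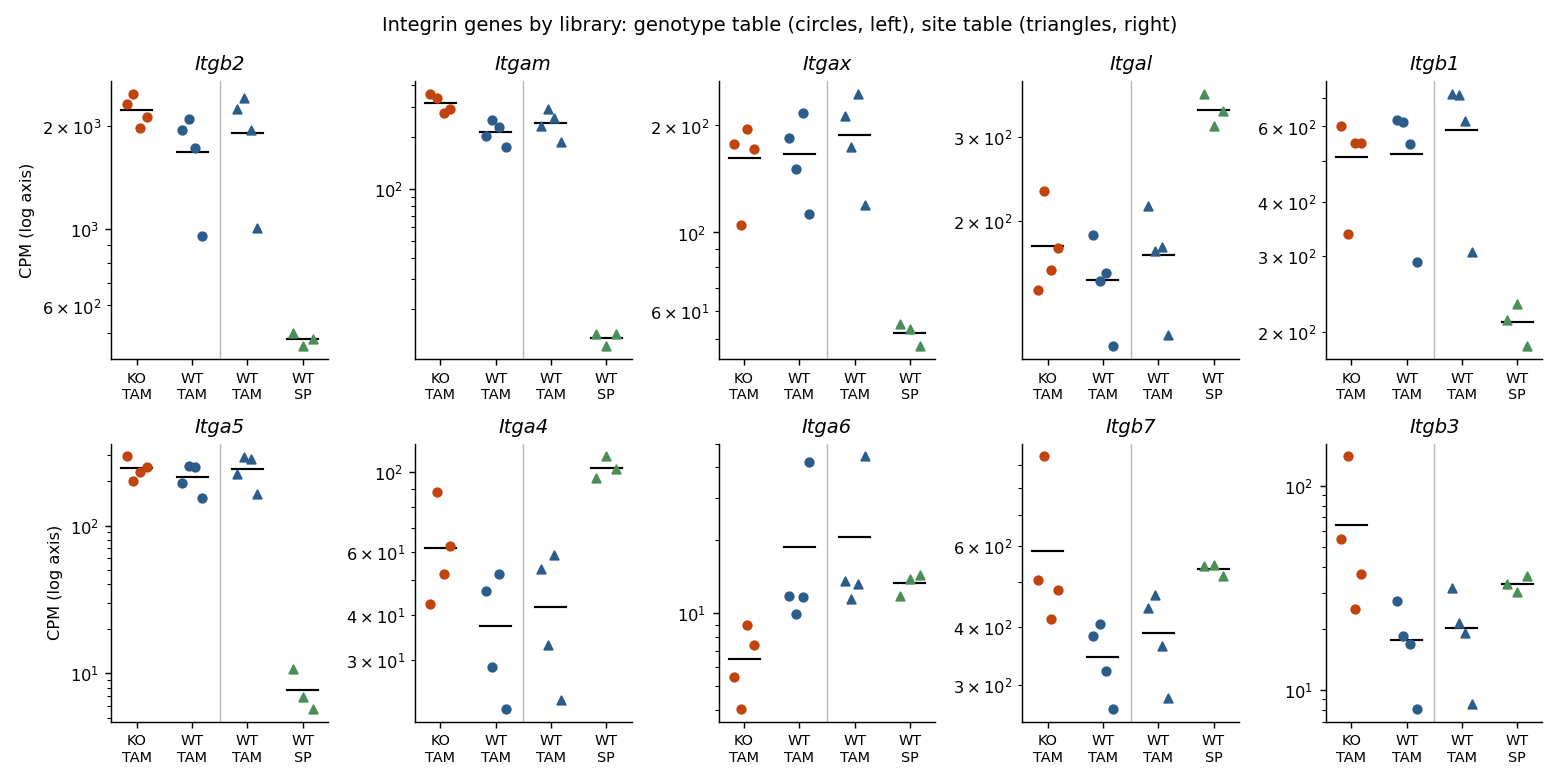
Level of each integrin gene in every library, in CPM on a log axis, with circles for the genotype table (KO_TAM and WT_TAM) and triangles for the site table (WT_TAM and WT_SP). Horizontal lines are group means. Itgam and Itga5 are far lower in the 3 splenic libraries, Itgal and Itga4 are higher there, and the lowest WT_TAM point of every gene but Itga6 is replicate 4.

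Levels of different genes were compared per length, as CPM per kilobase (RPKM) with the length that the deposited values imply. The level of Itgam also rests on the exons it shares with a readthrough gene. In WT_TAM of the site table, Itgb2 stood highest at 663 ± 218 RPKM (SD, n = 4), followed by Itgb1 (212 ± 69.3), Itgb7 (146 ± 31.7), Itgam (59.7 ± 10.9), Itga5 (54.6 ± 13.6), Itgax (46.1 ± 13.3) and Itgal (37.2 ± 8.96). Itgb3 (7.59 ± 3.55), Itga4 (6.49 ± 2.60) and Itga6 (4.94 ± 3.79) stood lowest. The ranges of neighbours in this order overlapped except between Itgb2 and Itgb1, between Itgb7 and Itgam, and between Itgal and Itgb3. In WT_SP the order was another one: Itgb7 led at 201 ± 6.03 RPKM (SD, n = 3), above Itgb2 (166 ± 7.36), Itgb1 (75.7 ± 8.63) and Itgal (74.7 ± 5.86), whose ranges overlapped. Itga4 (15.9 ± 1.11), Itgax (12.8 ± 0.946) and Itgb3 (12.5 ± 1.12) came next, and Itgam (3.35 ± 0.305), Itga6 (3.20 ± 0.325) and Itga5 (1.76 ± 0.584) last. The ranges of Itgax and Itgb3 overlapped there, as did those of Itgam and Itga6. In KO_TAM of the genotype table, Itgb2 (774.5 ± 78.7 RPKM, SD, n = 4) was followed by Itgb7 (220 ± 89.2) and Itgb1 (183 ± 42.2), then by Itgam (78.0 ± 9.38), Itga5 (55.3 ± 9.02), Itgax (39.8 ± 9.70), Itgal (38.8 ± 8.45), Itgb3 (24.2 ± 19.6), Itga4 (9.43 ± 3.01) and Itga6 (1.55 ± 0.514). There the ranges of Itgb7 and Itgb1 overlapped, and each of the genes from Itga5 down to Itgb3 overlapped with the next.

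In the first comparison, of tumor with splenic macrophages of mice without Cre, some integrins were higher in the tumor and some lower. The β2 chain, the β1 chain and the α chains Itgax and Itga5 were higher in WT_TAM, by 1.41 to 4.88 on the log2 scale of CPM + 0.5. Itgal and Itga4 were lower, by 1.03 and 1.37 in size. The gated Itgam, as a description, was higher too. Itgb7, Itgb3 and Itga6 did not pass the threshold. Leaving out the gated Itgam, 4 of 9 genes were called higher, where 23.1% of the 14239 genes tested were, and 2 of 9 lower, where 23.6% were (limma, adjusted p under 0.05). The lower count was near the share over all genes tested. The 4 called higher include Itgb2, whose product pairs with the gated CD11b. The median log2 fold change of the 9 genes was 0.38, beside -0.067 over all genes tested. Scaling by library totals alone moved the median of all genes by -0.46, to 2135 genes called higher and 5629 lower in place of 3287 and 3364, and the 6 calls stood under it with the same direction. The libraries of the groups did not overlap for 7 of the 9 genes, 4 higher and 3 lower, where 56.1% of all genes tested did not (26.3% higher and 29.8% lower).

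Itgb2, the chain that all β2 integrins share, stood at 2243, 2425, 1955 and 1011 CPM in WT_TAM replicates 1 to 4 and at 498, 456 and 480.0 CPM in WT_SP replicates 1 to 3. The lowest tumor library, replicate 4, still lay above every splenic library. The log2 fold change was 1.92 ± 0.30 (SE), with a limma adjusted p of 8.77e-04. CD18, its product, pairs with the gated CD11b, so the gates may bear on this difference too. Their part in it was not tested.

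Itgam, the α chain of the complement receptor CR3 and the gene of the gate, stood at 233, 291, 259 and 187 CPM in WT_TAM and at 14.3, 12.2 and 14.4 CPM in WT_SP. The groups lay far apart and each was tight, with a log2 difference of 4.09 ± 0.19 (SE). This is the direction of the gates, which took CD11b+ cells from the tumor and cells with low CD11b from the spleen.

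Itgax, the α chain best known from dendritic cells, stood at 213, 174, 246 and 119 CPM in WT_TAM and at 55.2, 53.4 and 47.8 CPM in WT_SP. The groups did not overlap, and no gate used this gene. This came to a log2 fold change of 1.79 ± 0.25 (SE), at a limma adjusted p of 4.99e-04. The 6 dendritic cell markers moved the other way, with summed levels of 38.7 to 96.1 CPM in WT_TAM and 574 to 613 in WT_SP. The part of these cells in the result was not tested.

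Itgal, the α chain of the ICAM receptor of lymphocytes, went against Itgam and Itgax. Its values were 215, 173, 176 and 116 CPM in WT_TAM and 369, 315 and 339 CPM in WT_SP, again without overlap. The fitted log2 fold change was -1.03 ± 0.23 (SE), with a limma adjusted p of 0.00542. B cell, T cell and NK cell markers, of cells that carry Itgal, moved with it (NK cell markers 15.2 to 60.2 CPM in WT_TAM and 122 to 138 in WT_SP), and their part in the result was not tested.

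Itgad, the fourth β2 partner and not one of the 10 genes, is known from red pulp macrophages and stood at 0.338, 2.16, 0.262 and 0.328 CPM in WT_TAM and at 165, 156 and 135 CPM in WT_SP. Its log2 fold change was -7.13 ± 0.43 (SE; limma adjusted p = 3.89e-06), the widest of any integrin chain tested, at a size that depends on the pseudocount because WT_TAM held only 2 to 22 reads. As shares of the 4 β2 partners per length, Itgam made up 42.1% ± 4.96, Itgax 31.9% ± 4.17, Itgal 25.9% ± 2.81 and Itgad 0.137% ± 0.153 in WT_TAM (SD, n = 4). In WT_SP, Itgal made up 57.4% ± 2.32, Itgad 30.2% ± 2.05, Itgax 9.83% ± 0.532 and Itgam 2.58% ± 0.236 (SD, n = 3). The share of Itgam, being that of a gated gene, is a description, and it rests on the exons shared with a readthrough gene.

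Itga5 showed the largest rise of the 10 genes. This fibronectin receptor chain stood at 225, 291, 284 and 163 CPM in WT_TAM and at 10.6, 6.87 and 5.72 CPM in WT_SP, and every tumor library lay far above every splenic one. Between the groups the log2 fold change was 4.88 ± 0.28 (SE; limma adjusted p = 2.79e-06). Its ligand Fn1, fibronectin, stood in the tumor libraries at 4648 ± 788 CPM (SD, n = 4) and in the splenic ones at 34.1 ± 6.48 (SD, n = 3). Fibroblast markers were also higher in WT_TAM, at 429 to 967.5 CPM against 7.49 to 44.8 in WT_SP, and their part in these results was not tested.

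Itgb1, the partner of Itga5, stood at 715, 711, 619 and 307 CPM in WT_TAM and at 213, 233 and 185 CPM in WT_SP. The groups did not overlap, although WT_TAM replicate 4 came close to the splenic level. The log2 fold change was 1.41 ± 0.31 (SE; limma adjusted p = 0.00526).

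Itga4, the VCAM1 receptor chain, was lower in the tumor. It stood at 53.8, 33.02, 58.8 and 23.1 CPM in WT_TAM and at 96.5, 111 and 102 CPM in WT_SP, with no overlap. This came to a log2 fold change of -1.37 ± 0.32 (SE), at a limma adjusted p of 0.00739. Lymphocytes carry Itga4. The B and T cell markers were higher in WT_SP, as given above, and the part of these cells in the result was not tested.

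The α chain with the largest share among the possible partners of β1 thus differed between the sites. Among 11 α chains that pair with β1, taken per length, Itga5 made up 53.4% ± 7.71 and Itga4 6.38% ± 2.41 in WT_TAM (SD, n = 4), while Itga5 made up 5.40% ± 1.81 and Itga4 48.7% ± 3.34 in WT_SP (SD, n = 3). Itga4 also pairs with β7, so its share is not that of β1 pairs alone. All these shares rest on the lengths that the deposited values imply. Itgav, which also pairs with other β chains, made up 18.6% ± 4.29 and 21.3% ± 2.07, with ranges that overlapped. It stood above Itga4 in WT_TAM and above Itga5 in WT_SP. Itga5 exceeded Itga4 per length by a ratio of 6.17 to 13.0 in the WT_TAM libraries and stood at a ratio of 0.0826 to 0.163 to it in the WT_SP libraries.

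**Figure D2:**
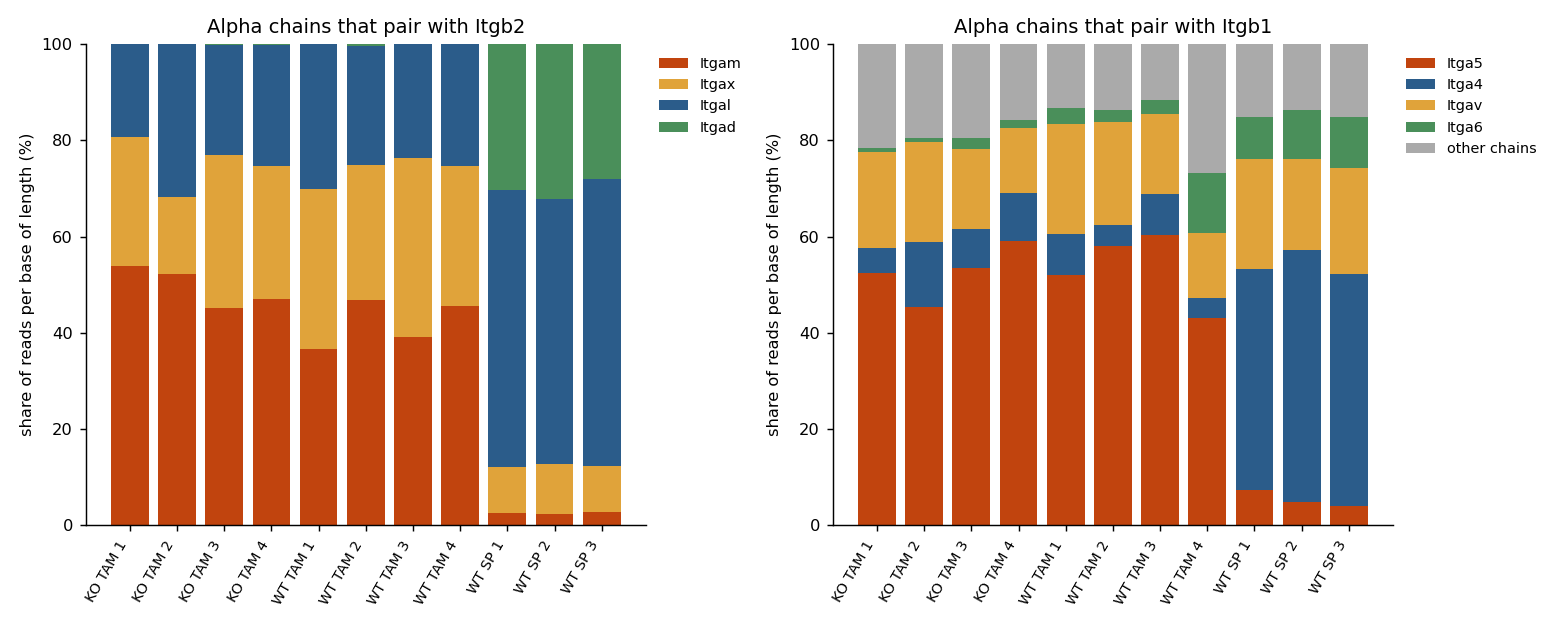
Shares of the α chains that pair with Itgb2 (left) and Itgb1 (right) in each library, in percent of reads per base of length over the chains of the panel, from the genotype table for the tumor libraries and the site table for the splenic ones. Itgal and Itgad fill most of the left bars in the spleen and Itgam and Itgax in the tumor, and on the right Itga5 in the tumor and Itga4 in the spleen hold the largest share.

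Itgb7, the chain of gut-homing lymphocytes, stood at 441, 469, 364 and 281 CPM in WT_TAM and at 544, 545 and 516 CPM in WT_SP. All tumor libraries lay below all splenic ones, but the distance was small (log2 fold change -0.49 ± 0.21, SE; limma adjusted p = 0.0866, range 0.00193 to 0.205 over the alternatives). Without the library labelled WT_TAM replicate 4 it was -0.34 and passed (limma adjusted p = 0.0127). Itgb3, the vitronectin receptor chain, stood at 31.4, 21.3, 19.1 and 8.53 CPM in WT_TAM and at 33.1, 30.1 and 36.00 CPM in WT_SP, so WT_TAM replicate 1 lay within the splenic range. Its log2 fold change was -0.84 ± 0.38 (SE; limma adjusted p = 0.103), and it passed without WT_TAM replicate 4 (-0.49, limma adjusted p = 0.0335) or without WT_TAM replicate 1 (-1.10, limma adjusted p = 0.0376). Itga6, the laminin receptor chain, stood at 13.6, 11.5, 13.2 and 44.4 CPM in WT_TAM and at 11.8, 13.8 and 14.4 CPM in WT_SP. WT_TAM replicate 4 alone lay above the splenic range, and the difference of 0.38 ± 0.44 on the log2 scale (SE), at a limma adjusted p of 0.513, turned to -0.064 without it.

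**Figure D3:**
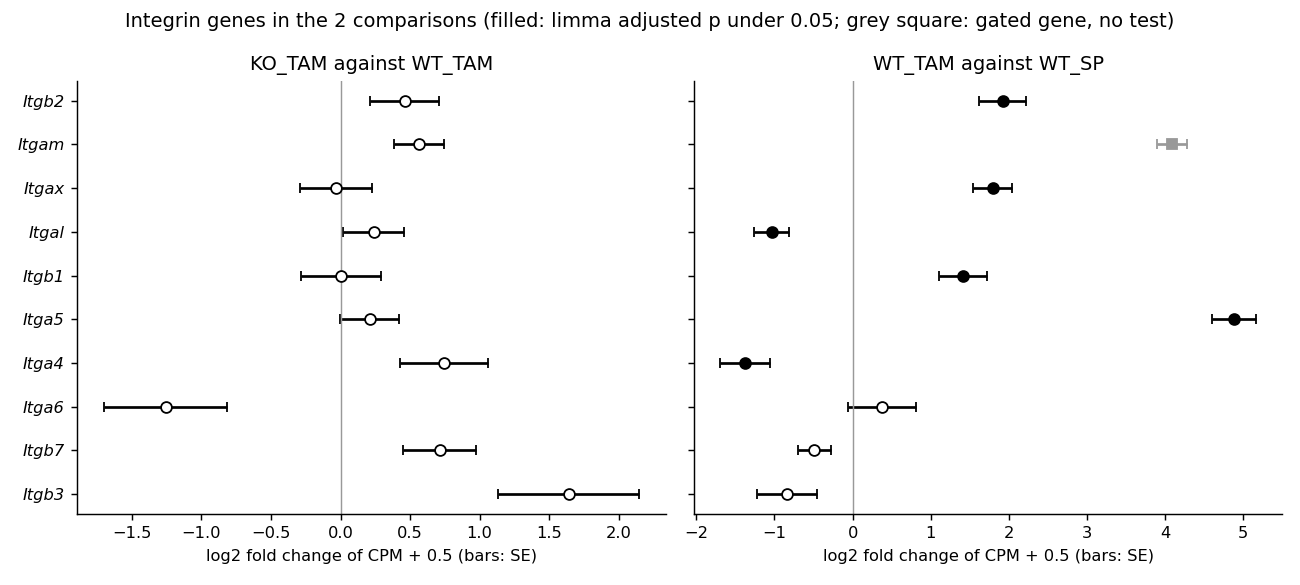
Log2 fold change of CPM + 0.5 with its standard error for the 10 genes in KO_TAM against WT_TAM (left) and WT_TAM against WT_SP (right), with filled circles where the limma adjusted p is under 0.05 and a grey square for Itgam on the right, whose product was gated and which has no test there. On the left 0 circles are filled, and on the right 6 are, from -1.37 for Itga4 to 4.88 for Itga5. The horizontal axes differ in range.

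The second comparison, of macrophages with and without LysMCre within the tumor, gave 0 calls among the 10 genes and 0 of 12841 genes tested (limma; smallest adjusted p 0.102). At an unadjusted p under 0.05 stood 5 of the 10 genes, where 18.3% of all genes tested did: 4 higher (8.64% of all genes) and Itga6 lower (9.66%). The libraries of the groups did not overlap for Itgam and Itgb7, which were higher in KO_TAM (6.37% of all genes), or for Itga6, which was lower (8.69%). The log2 fold change was above 0 for 8 of the 10, and for 6478 of the 12841 genes tested. Its median over the 10 was 0.35, beside 0.0047 over all genes tested. Without both libraries that lay apart, the fold changes of Itgal (-0.043) and Itgb1 (-0.068) fell below 0. Under the 16 alternatives, 0 of the 10 genes were called. The library labelled WT_TAM replicate 4 was the lowest of its group in 9 of the 10 genes and the highest in Itga6, and KO_TAM replicate 2 was the highest of its group in 5 and the lowest in 4, so fold changes are also given without both.

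Itgam stood at 358, 339.7, 278 and 292 CPM in KO_TAM replicates 1 to 4 and at 202, 252, 229 and 176 CPM in WT_TAM replicates 1 to 4. Every KO_TAM library lay above every WT_TAM library, in cells sorted with the same CD11b gate. The fitted log2 fold change was 0.56 ± 0.18 (SE; limma adjusted p = 0.176, range 0.0651 to 0.386 over the alternatives), and 0.44 without the 2 libraries that lay apart. Of the 10 genes, Itgam thus had the smallest standard error, and it did not pass under any alternative. Neutrophils carry much Itgam, and the sum of their markers, given above and mostly Retnlg, was higher in KO_TAM, while S100a8 and Csf3r overlapped: their part in the difference was not tested.

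Itgb2, the partner of Itgam, stood at 2328, 2490.2, 1974 and 2123 CPM in KO_TAM and at 1946, 2100.3, 1726 and 956 CPM in WT_TAM. WT_TAM replicates 1 and 2 came near or into the KO_TAM range and replicate 4 lay far below it. With a limma adjusted p of 0.333, the difference was 0.46 ± 0.25 (SE) on the log2 scale, and 0.16 without both libraries.

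The other β2 partners showed no shift in common. Itgax stood at 178, 105, 195 and 171 CPM in KO_TAM and at 184, 151, 217 and 113 CPM in WT_TAM, at a log2 fold change of -0.032 ± 0.26 (SE), with a limma adjusted p of 0.955. Itgal stood at 143, 231, 158 and 176 CPM in KO_TAM and at 186, 149.8, 155 and 109 CPM in WT_TAM, at a log2 fold change of 0.24 ± 0.22 (SE), with a limma adjusted p of 0.560, and of -0.043 without both libraries. The groups overlapped for both genes. Per length, Itgam made up 49.6% ± 4.12 of the 4 β2 partners in KO_TAM and 42.1% ± 4.96 in WT_TAM, Itgax 25.5% ± 6.66 and 31.9% ± 4.17, and Itgal 24.8% ± 5.22 and 25.9% ± 2.81 (SD, n = 4 each), and the ranges overlapped for each. Itgad was near the limit of detection in both groups. Here too, the share of Itgam rests on the exons shared with a readthrough gene.

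Among the chains that bind fibronectin, Itga5 stood at 294, 199, 232 and 251 CPM in KO_TAM and at 195, 252, 251 and 154 CPM in WT_TAM. Itgb1 stood at 602, 337, 549.8 and 548 CPM in KO_TAM and at 621, 616, 546 and 290.1 CPM in WT_TAM. In each group of Itgb1, 3 libraries lay close together and the one that stood apart in general was low. The log2 fold changes were 0.21 ± 0.21 for Itga5 and 0.0034 ± 0.28 for Itgb1 (SE; limma adjusted p = 0.599 and 0.996), and 0.16 and -0.068 without both libraries. The groups overlapped for both genes.

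Itga4 stood at 42.8, 88.2, 51.9 and 62.4 CPM in KO_TAM and at 46.7, 28.6, 51.95 and 21.9 CPM in WT_TAM. KO_TAM replicate 2 was the highest and the library labelled WT_TAM replicate 4 the lowest, and the groups overlapped. With a limma adjusted p of 0.256, the difference was 0.74 ± 0.31 (SE) on the log2 scale, and 0.33 without both. Itgb7, its partner in gut-homing cells, stood at 507, 938, 417 and 483 CPM in KO_TAM and at 383, 406, 321 and 266 CPM in WT_TAM. The groups did not overlap, with KO_TAM replicate 2 far above the rest. With a limma adjusted p of 0.219, the difference was 0.71 ± 0.27 (SE) on the log2 scale, and 0.34 without both libraries. Siglecf, which makes up most of the summed eosinophil, basophil and mast cell markers, was also highest in KO_TAM replicate 2, at 487 CPM. Its part in these differences was not tested.

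Itgb3 had the largest rise of the 10 genes by size, and the widest spread. It stood at 54.7, 139, 25.1 and 36.9 CPM in KO_TAM and at 27.3, 18.4, 16.8 and 8.06 CPM in WT_TAM. KO_TAM replicate 3 lay within the WT_TAM range, and KO_TAM replicate 2 held more than the other 3 together. Between the groups the log2 fold change was 1.64 ± 0.51 (SE; limma adjusted p = 0.169), and 0.84 without both libraries. Its α partners differed: Itgav stood at 95.9, 78.1, 62.1 and 49.2 CPM in KO_TAM and 73.8, 79.8, 59.3 and 41.7 CPM in WT_TAM, and Itga2b, the platelet and mast cell partner, at 7.85, 40.6, 7.69 and 13.9 and 5.57, 4.67, 2.39 and 1.86 CPM. Itga2b, like Itgb3, was highest in KO_TAM replicate 2 and lowest in the library labelled WT_TAM replicate 4.

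Itga6 was the one of the 10 genes with all KO_TAM libraries below all WT_TAM libraries. It stood at 5.49, 4.03, 8.94 and 7.41 CPM in KO_TAM and at 11.8, 9.93, 11.7 and 42.00 CPM in WT_TAM. The log2 fold change was -1.26 ± 0.44 (SE; limma adjusted p = 0.201), and -0.60 without both libraries. Fibroblast markers were lower in KO_TAM too, as given above, and their part in it was not tested.

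Of 16 further integrin chains, 12 passed the filter in the genotype comparison and 0 were called. Itga1, a collagen receptor chain, stood at 65.8, 42.1, 42.8 and 32.1 CPM in KO_TAM and at 18.8, 22.5, 16.3 and 10.1 CPM in WT_TAM. The groups did not overlap (log2 fold change 1.42 ± 0.29, SE; limma adjusted p = 0.102), and it passed without the filter (limma adjusted p = 0.0425) and with a weight for each library (limma adjusted p = 0.0189). Itgb4, Itga3 and Itgb5 were on average lower in KO_TAM, with log2 fold changes of -2.07 ± 0.45, -2.42 ± 0.73 and -1.52 ± 0.53 (SE). They too did not overlap, as 8.69% of all genes tested were lower without overlap. Without both libraries that lay apart they were -1.41, -1.16 and -0.67. Itgb4 passed under the same settings as Itga1 (limma adjusted p = 0.0275 without the filter and 0.0319 with weights). Itga2b stood at 1.89 ± 0.52, Itga9 at -0.92 ± 0.36 and Itga2 at 0.88 ± 0.50 (SE), and at 1.15, -0.64 and 0.31 without both libraries. The log2 fold changes of Itga7, Itga8, Itgae, Itgav and Itgb8 lay between -0.63 and 0.48. The median over the 12 was -0.27.

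In WT_TAM against WT_SP, 13 of the 16 further chains passed the filter. Besides Itgad, Itga2b fell by 2.81 and Itgae, the intraepithelial lymphocyte partner of β7, by 2.32, though the call of Itgae was lost when WT_SP replicate 1, 2 or 3 was left out (limma adjusted p = 0.0652, 0.0519 and 0.0640). Higher in WT_TAM were Itgb4 (log2 fold change 4.61 ± 0.34, SE), Itga3 (3.31 ± 0.61), Itgb5 (2.37 ± 0.53), Itga1 (2.33 ± 0.34) and Itgav (1.39 ± 0.26). So 5 of 13 were called higher and 3 lower, where 23.1% and 23.6% of all genes were. Itga8 (0.99), Itga9 (-0.58), Itga2 (-0.34), Itgb8 (0.23) and Itga7 (-0.083) did not pass, but without the library labelled WT_TAM replicate 4 Itga8 was called higher (1.36) and Itga9 lower (-0.88). The median over the 13 was 0.23.

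The wider pathway was counted from lists of genes by role. Beside the counts between tumor and spleen stand the 23.1% of all genes tested that were called higher and the 23.6% called lower. Of 22 tested integrin ligands, 15 were called higher and 5 lower in WT_TAM than in WT_SP, with a median log2 fold change of 2.18. The largest were Spp1, osteopontin (11.29 ± 0.49, SE), Fn1, fibronectin (7.07 ± 0.21) and Thbs1, thrombospondin (5.88 ± 0.44). Of 23 tested genes that regulate the activation of integrins from inside, 5 were higher and 7 lower (median -0.092). Activators and inhibitors are counted together there, so these counts give no direction of activation. Rasgrp3 (-5.91 ± 0.26, SE) and Rasgrp2 (-3.92 ± 0.19), exchange factors of Ras-family GTPases, fell, both known from lymphocytes or platelets, and the kindlin Fermt2 rose (3.47 ± 0.32). Of 28 genes of signalling from bound integrins, 10 were higher and 4 lower (median 0.37), led by the adaptor Bcar1 (4.96 ± 0.39, SE), the parvin Parva (4.13 ± 0.37) and the kinase Src (3.10 ± 0.44). Of 14 tetraspanins and other lateral partners, 6 were higher and 2 lower (median 0.52), with Cav1 (6.44 ± 0.64, SE), Cd63 (4.62 ± 0.26) and Plaur, the urokinase receptor (3.33 ± 0.22), at the top. Fermt2, Bcar1, Parva and Cav1 are known from adherent stromal cells, and fibroblast markers were higher in WT_TAM, as given above. The part of such cells was not tested.

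In the genotype comparison, 0 genes of these 4 lists were called. Of all genes tested, 18.3% had an unadjusted p under 0.05, 8.64% higher and 9.66% lower, and the counts of the lists are to be read against these. Of 21 ligands, 7 had an unadjusted p under 0.05, all lower in KO_TAM, and the median was -0.58. Cyr61, a matricellular protein, stood at -2.40 ± 0.54 (SE), Vcam1, the ligand of Itga4, at -1.39 ± 0.33 and Tnc, tenascin, at -1.41 ± 0.35 (limma adjusted p = 0.113, 0.119 and 0.126). Without both libraries they were -1.88, -1.03 and -1.61. Of 23 regulators of activation from inside, activators and inhibitors together, 5 had such a p, 3 higher and 2 lower (median 0.22). Rasgrp2 stood at 0.92 ± 0.25 (SE), Fyb, an adaptor of talin recruitment, at 0.57 ± 0.20, and Fermt2 at -1.97 ± 0.54, and without both libraries 0.68, 0.37 and -1.20. Of 27 signalling genes, 8 did, 6 higher and 2 lower (median 0.26), with Vav3 at 0.87 ± 0.28 (SE), Bcar1 at -2.27 ± 0.57 and Parva at -2.02 ± 0.58, and without both libraries 0.61, -1.39 and -1.29. Of 14 lateral partners, 2 did, both lower (median -0.13): Tspan9 at -1.91 ± 0.35 (SE) and Cd81 at -0.80 ± 0.28. Plaur stood at 0.44 ± 0.21. Without both libraries they were -1.50, -0.42 and 0.22. Fibroblast markers were lower in KO_TAM, and their part in the lower values of Cyr61, Tnc, Fermt2, Bcar1 and Parva was not tested.

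**Figure D4:**
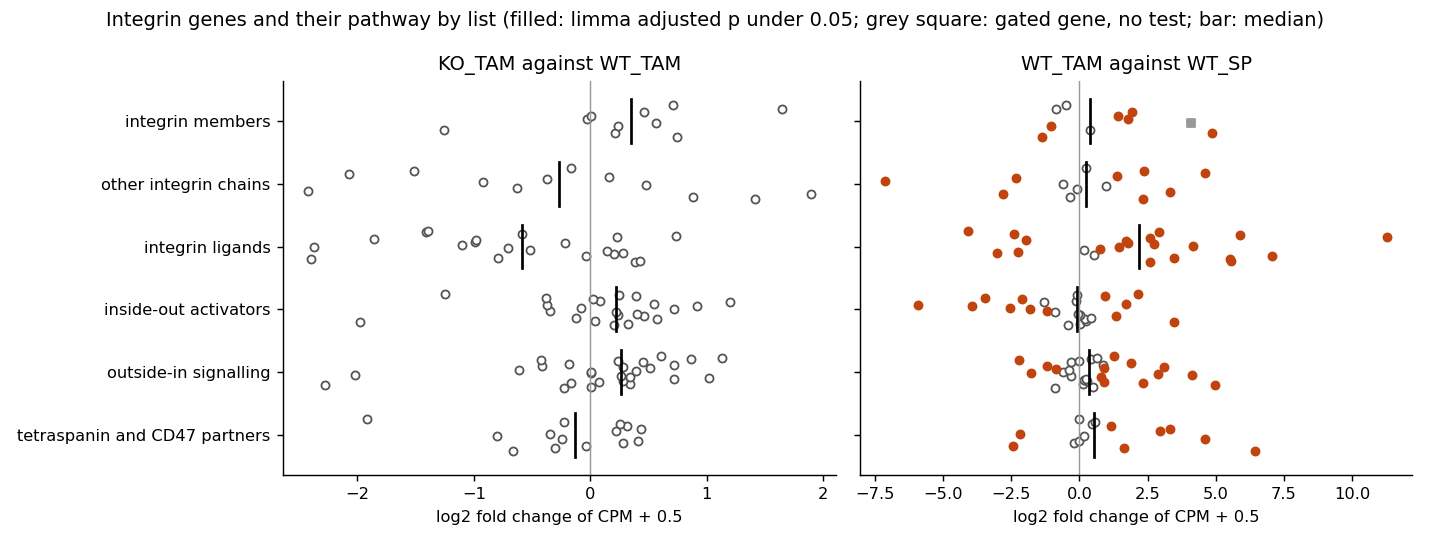
Log2 fold change of CPM + 0.5 of every tested gene of the integrin lists, in KO_TAM against WT_TAM (left) and WT_TAM against WT_SP (right), with filled circles where the limma adjusted p is under 0.05, a grey square for the gated Itgam on the right, left out of the median there, and a bar at each list's median. On the left 0 circles are filled. On the right the ligands have the highest median, 2.18. The regulators of activation from inside, labelled inside-out activators and including inhibitors, have the lowest, -0.092.

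The genes whose profile over libraries was most like that of 2 of the integrins were named by the root mean square difference of their log2 profiles, each centred on its mean. Over the 7 libraries of the site table and 8896 genes of at least 10 CPM, Anxa3 (0.13), Aldoc (0.16) and Rusc2 (0.18) were nearest to Itgam, whose own range was 4.52. Pvr (0.073), a nectin-like adhesion molecule, Synj2 (0.12) and P2ry14 (0.13) were nearest to Itgax, with a range of 2.35. Over the 8 libraries of the genotype table and 8071 genes, R3hdm1 (0.10), Dubr (0.12) and Man1a (0.12) were nearest to Itgam, with a range of 1.02, and Stard9 (0.12), Rab10 (0.13) and Wdsub1 (0.14) to Itgax, with a range of 1.04. The nearest genes of the 2 tables were not the same for either integrin.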

How the data were processed

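Groups and replicate numbers came from the sample titles. The submitters' processing notes list build mm10 and the tools TopHat2, HISAT2, HISAT, SAMtools, HTSeq and DESeq2, without roles, settings or strandedness, and these are not given elsewhere in the sources. The authors deposited 2 tables of length- and depth-scaled values, treated as a score because they are neither counts nor a standard unit. All 11 libraries were used and 0 columns left out. Each value proved to be a whole number of reads divided by gene length and library total and multiplied by size factors, and the reads were recovered from this (within 0.0002 reads; 99.9% of non-zero values of the genotype table). The exceptions, 35 genes of the genotype table and 2 genes not settled, none of them named here, were left out. Because the deposited unit is a score, the planned count tests were not used.

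CPM were relative to library total times size factor. In limma 3.58.1 (R 4.3.3), log2(CPM + 0.5) was fitted with limma-trend and robust moderation, each comparison in its own table, without covariates and two-sided. This scale understates changes of low genes. Genes were kept where at least the smaller group's number of libraries reached the level worth 10 reads in a library of median size, with 15 reads in all. P-values were adjusted by Benjamini-Hochberg over all genes tested, with a threshold of 0.05. The fit was checked on simulated data. The genes named were the 10 integrins, every other integrin chain tested, 3 genes per further list (the largest changes among those called, otherwise the smallest p) and the 3 nearest profiles of Itgam and Itgax. The 10 genes and the lists were chosen with earlier results of these data known.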

Additional observations from a re-analysis of the deposited data

Results flagged for a closer look

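Itga6 in WT_TAM was flagged in both tables because 1 library lay far from the other 3. The library labelled WT_TAM replicate 4 held 42.0 CPM in the genotype table, where the other 3 WT_TAM libraries held 9.93 to 11.8 CPM, and 44.4 CPM in the site table, where they held 11.5 to 13.6 CPM. These are the same reads under 2 scalings. Of 30 groups of 4 libraries examined, 2 were flagged, and chance flags about 1 group in 20. Without that library the log2 fold change of Itga6 was -0.79 in place of -1.26 for KO_TAM against WT_TAM and -0.064 in place of 0.38 for WT_TAM against WT_SP.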

How the results depend on the processing

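The alternatives were no filter, a pseudocount of 2 CPM, library totals, quantile normalization, voom, a weight for each library, a replicate block, each library left out in turn and, for the genotypes, both libraries that lay apart left out. The 6 calls of tumor against spleen, Itgam left out, stood under all 14 settings with the same direction. Lower calls rose from 2 to 4, by Itgb3 and Itgb7, with library totals, with weights and with the replicate block, and ranged from 2 to 4 with 1 library left out. The log2 fold changes that turned sign were all of genes not called. For KO_TAM against WT_TAM these were Itgax with library totals (0.040), Itgb1 with quantile normalization (-0.047) and weights (-0.095), Itgal with weights (-0.026), and, without both libraries, Itgb1 (-0.068), Itgal (-0.043), Itga7 (0.050) and Itgav (-0.084). With 1 or both libraries left out, Itgax ranged from -0.20 to 0.16, Itgb1 from -0.25 to 0.19, Itgal from -0.043 to 0.35, Itga7 from -0.95 to 0.050, Itgb8 from -0.40 to 0.14 and Itgav from -0.084 to 0.32. For WT_TAM against WT_SP they were Itga7 with the larger pseudocount (0.012) and quantile normalization (0.083), Itgb8 with library totals (-0.10), weights (-0.14) and the block (-0.065), and Itga6 with library totals (-0.084), weights (-0.055) and the block (-0.064). With 1 library left out, Itga7 ranged from -0.57 to 0.24, Itgb8 from -0.065 to 0.43 and Itga6 from -0.064 to 0.57. The cause was not tested.

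Over all genes, KO_TAM against WT_TAM gave 0 higher and 0 lower calls, 20 and 75 without the filter, 139 and 240 with weights, and 21 and 44 without both libraries, and the 2350 genes at an unadjusted p under 0.05 became 1483 without KO_TAM replicate 2. For WT_TAM against WT_SP, 3287 higher and 3364 lower became 2135 and 5629 with library totals. The labels call the mice paired but do not tie the numbers to pairs, and libraries of the same number did not deviate together (correlations 0.046, 0.11, -0.16 and 0.20 between genotypes, and -0.0023, -0.094 and 0.098 between sites). With the replicate block, 0 of the 10 genes were called between genotypes. Between sites, with the gated Itgam left out, the 6 calls stood and the lower calls were 4. There the block drops the library labelled WT_TAM replicate 4, which has no partner. Among the other genes named for the genotypes, Tspan9 was called without the filter, with weights and without both libraries (limma adjusted p = 0.0236, 0.0195 and 0.0488), and Vcam1, Tnc and Bcar1 with weights (0.0309, 0.0259 and 0.0448). The fewest reads behind a value of the 10 genes were 39, for Itga6.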

Other observations

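Per length, Itgb2 and Itgb7 were read above the sum of their α partners in every library. Itgb2 stood at 3.49 to 5.51 times the sum of Itgal, Itgam, Itgax and Itgad in the WT_TAM libraries, at 4.54 to 5.40 times in KO_TAM, and at 1.23 to 1.34 times in WT_SP, so the ratio in the spleen lay below every tumor library. Itgb7 stood at 12.2 to 28.3 times the sum of its partners Itga4 and Itgae in WT_TAM, 17.6 to 24.3 times in KO_TAM and 8.48 to 9.24 times in WT_SP. The ratio of Itgam to Itgax was 1.06 to 1.68 in WT_TAM, 1.43 to 3.25 in KO_TAM and 0.229 to 0.301 in WT_SP. These ratios rest on the lengths in the deposited values and, for Itgam, on the exons it shares with a readthrough gene, and no test was made on them.

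Itga1, a collagen receptor chain, made up 12.3% to 19.1% of the 11 α chains that pair with β1 in the KO_TAM libraries, per length, and 4.58% to 8.42% in the WT_TAM libraries, while Itga5 stood at 52.6% ± 5.63 and 53.4% ± 7.71 (SD, n = 4 each). The shares rest on the lengths in the deposited values. For Itga1 that length is 2707.5 bases, where its annotated exons cover 18599, and for Itga5 it is 4409 of 4933. So the share of Itga1 against other chains may be too high. No test was made on the shares, and Itga1 itself was not called (limma adjusted p = 0.102).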
